A study of Rattus norvegicus with 15 samples.

Results

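Ribosome footprints from rat brain RNA granules held in high salt and then diluted were compared with footprints from granules without this step. The comparison used 4 of the 15 libraries of the study, salt libraries 1 and 2 and vehicle libraries 4 and 5. These 4 were taken because their depths are of the same order, and the genes described average 50 counts or more over the 4 libraries. Of 22050 Ensembl gene IDs in the table, 5258 met this minimum, 16791 did not, and 1, ENSRNOG00000010711, was left out of the totals and the tests. The lowest mean among the genes kept was 50 counts and the highest among the rest was 49.75.

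The rats were of the Sprague Dawley strain and aged 5 days after birth. Each homogenate pooled 5 whole brains, and no genetic change or drug is stated for the groups compared. Both groups were homogenised in a buffer with 150 mM NaCl without cycloheximide, and the pellet below a sucrose gradient was resuspended. For the salt group the suspension was held in 400 mM NaCl for a short time in the cold and then diluted to 150 mM, while the vehicle group stayed at 150 mM. Both were digested with 100 U of RNase I, and fragments protected by single ribosomes were sequenced. Whether salt and vehicle libraries shared a homogenate is not given in the sources used here. Each group has 2 libraries, and nothing says that they came from separate animals, so p-values measure only the spread between these libraries, which may be technical.

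Ribosome profiling counts short mRNA pieces that a ribosome shields from nuclease, so a count is read as the trace of a ribosome on that mRNA. Neuronal RNA granules are dense assemblies of ribosomes, mRNA and RNA-binding proteins, and many of their ribosomes are thought to be paused during transport into dendrites and axons. Concentrated salt weakens electrostatic contacts between proteins and RNA, separates ribosomes that carry no mRNA into subunits and strips loosely bound proteins, whereas a ribosome holding mRNA and a nascent chain is more stable. The comparison therefore asks which mRNAs still carried footprints after salt, relative to the others. Counts are shares of a library, so a loss common to all footprints would not be seen. Whole brain mixes many cell types, and fewer cells of a type cannot be told apart from fewer footprints per cell.

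The count table names genes by Ensembl ID only, and the reference table used here paired 0 of these IDs with a symbol. The brain cell markers and the 16 lists of pathways and cell types drawn up for the comparison could therefore not be applied, and genes are grouped below by footprint count and by their footprint to RNA ratio in other libraries. Without ENSRNOG00000010711 the totals were 843053 and 1034452 counts in salt libraries 1 and 2 and 1797222 and 2429708 in vehicle libraries 4 and 5. Both salt libraries were shallower than both vehicle libraries, so salt and depth go together in this comparison. The genes tested held 90.8% to 91.5% of these totals, and 11096 to 13217 genes had at least 1 count. ENSRNOG00000010711 had 98584 and 124307 counts in salt libraries 1 and 2 and 97985 and 379071 in vehicle libraries 4 and 5. Per 1000000 counts of all other genes this was 116937 and 120167 with salt against 54520 and 156015 with vehicle. Both salt values lay between the vehicle values.

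Of the 4 pairs of a salt and a vehicle library, 3 were closer than the libraries of 1 group were to each other, and the pair of salt 2 and vehicle 4 was the most distant of all 6 pairs. Differences were measured per gene in log2(CPM + 1), where CPM is the count scaled to a library total of 1000000, here with the TMM scaling factor. Over the 5258 genes the median absolute difference was 0.403 between vehicle libraries 4 and 5 and 0.404 between salt libraries 1 and 2. Between the groups it was 0.310 for salt 1 and vehicle 5, 0.317 for salt 2 and vehicle 5, 0.352 for salt 1 and vehicle 4, and 0.471 for salt 2 and vehicle 4. Vehicle library 5 was thus nearer to each salt library than to vehicle library 4, and salt library 1 was nearer to each vehicle library than to salt library 2.

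**Figure D1:**
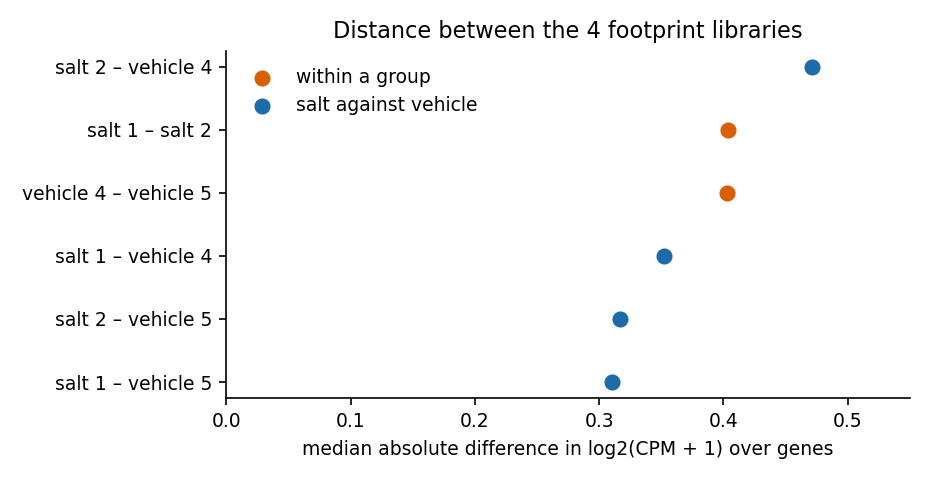
Median absolute difference in log2(CPM + 1) over 5258 genes (x axis) for each of the 6 pairs of libraries (y axis), with pairs within a group in orange and salt to vehicle pairs in blue. Of the 4 salt to vehicle pairs, 3 lie below both within-group pairs, at 0.310 to 0.352 against 0.403 and 0.404.

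Genes that differed more than 2-fold followed the same order. They numbered 610 (11.6%) between the vehicle libraries and 702 (13.4%) between the salt libraries. Between groups they numbered 279 (5.31%) for salt 1 and vehicle 5 and 988 (18.8%) for salt 2 and vehicle 4, with the other pairs at 494 and 554. Pearson correlations across genes were 0.880 for the vehicle pair, 0.867 for the salt pair and 0.818 to 0.926 for the salt to vehicle pairs, over genes that share each library's depth and are not independent replicates. The counts of both within-group pairs differed by more than sampling noise, with a chi-square per degree of freedom of 19.0 for vehicle and 8.88 for salt. It was 7.64 to 16.9 for the salt to vehicle pairs. This value grows with depth, so its size is not comparable between pairs of unlike depth.

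No gene was called changed by salt. With edgeR's quasi-likelihood test, 0 of 5258 genes (0%) had a Benjamini-Hochberg adjusted p under 0.05, and the smallest adjusted p was 0.998. That edgeR minimum depended on the settings, at 0.089 without robust estimation and 0.661 with edgeR's own filter on counts. In the main fit an unadjusted p under 0.05 was found for 47 genes higher with salt (0.894%) and 64 lower (1.22%), 111 in all. DESeq2 and limma-voom also called 0 genes, with 84 and 75 genes at an unadjusted p under 0.05. The split of those genes by direction depended on the tool and the libraries, at 34 higher and 50 lower with DESeq2 but 54 higher and 21 lower with limma-voom. Single libraries moved these counts. Without salt library 1, 4 genes were called, 2 higher and 2 lower, and 295 genes had an unadjusted p under 0.05. Without salt library 2, vehicle library 4 or vehicle library 5 no gene was called, and the unadjusted counts were 70, 35 and 340. Higher genes outnumbered lower ones without vehicle library 4 (19 and 16) and without vehicle library 5 (190 and 150), and lower genes did so without salt library 1 (94 and 201) and salt library 2 (23 and 47).

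The genes called without salt library 1 rest on salt library 2, the only salt library in that fit. The 2 higher ones had 294 and 134 counts in salt library 2 but 25 and 18 in salt library 1, against 64 and 41 and against 33 and 30 in vehicle libraries 4 and 5. Once scaled to the totals, the first of them overlapped between the groups and the second did not. The 2 lower ones had 0 counts in salt library 2 and 24 and 11 in salt library 1. Vehicle libraries 4 and 5 held 137 and 75 for the first and 116 and 74 for the second. Scaled to the totals, neither of these 2 overlapped between the groups. Of the 5258 genes, 2 had 0 counts in salt library 2, 0 had none in any other of the 4 libraries, and no gene was at 0 in both salt libraries.

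Fitted changes were small for most genes. The log2 fold change of salt against vehicle had a median of 0.0057, quartiles of -0.23 and 0.24, and extremes of -2.91 and 2.61. It exceeded 1 in size in 168 genes, 54 higher and 114 lower with salt. The vehicle libraries supplied 69.2% of the counts, so the minimum on the mean count is met more easily by a gene that is low with salt than by one that is high. When the 4 libraries were weighted equally, with a minimum mean of 32.8 CPM, 76 genes were higher and 85 lower by more than 1, of 5243 genes tested. The excess of lower genes was thus smaller with that minimum, and 1 gene was called.

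The shift between group means was set beside the gap between the 2 vehicle libraries, gene by gene. The median absolute shift was 0.240 in log2(CPM + 1), against median gaps of 0.403 for vehicle and 0.404 for salt. A mean of 2 libraries varies less than a single library, so a smaller value for the shift does not by itself show an absence of change. The 90th percentiles were 0.716 for the shift, 1.06 for the vehicle gap and 1.13 for the salt gap. In 1795 genes (34.1%) the shift exceeded the vehicle gap. The shares that the spread between libraries alone would give, here and for the counts without overlap below, were not computed.

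**Figure D2:**
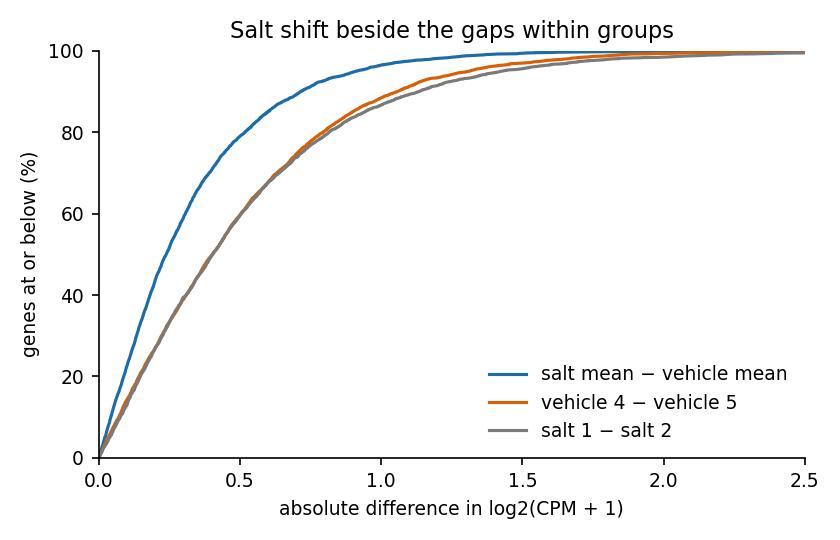
Share of the 5258 genes (y axis, percent) with an absolute difference at or below the value on the x axis, in log2(CPM + 1), for the salt minus vehicle shift of means (blue), vehicle 4 minus vehicle 5 (orange) and salt 1 minus salt 2 (grey). The curves of both gaps nearly coincide, with medians of 0.403 and 0.404, and the shift curve lies to their left, with a median of 0.240.

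The groups overlapped in 3845 genes (73.1%). Both salt values lay above both vehicle values in 713 genes (13.6%) and below them in 700 (13.3%). A stricter count asked that the nearest salt and vehicle values be farther apart than vehicle libraries 4 and 5 are from each other. That held for 275 genes higher with salt (5.23%) and 315 lower (5.99%). The counts of both directions were therefore close to each other by either measure. When all 5 vehicle libraries set the range, 311 genes lay above it with salt (5.91%) and 340 below it (6.47%). Of the 275 and 315 genes beyond the vehicle gap, 125 and 176 also lay outside the range of the 5 vehicle libraries. Vehicle libraries 1 to 3 are far deeper, and depth cannot be told apart from other differences between the sets of libraries.

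The precision of each gene set what could be said of its resistance. An interval was computed from the edgeR fit, at 95% for each gene singly, and a gene was counted as resistant in a limited sense when the interval stayed above a 2-fold decrease relative to the other genes. This was so for 3391 genes (64.5%). Both bounds lay within 2-fold for 1964 genes. The median standard error over all genes tested was 0.44 in log2.

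Genes with many footprints resisted within narrow bounds. Among the 191 genes averaging 1000 counts or more, which took 27.1% of all counts, the log2 fold change ran from -0.33 to 0.43 and all 191 intervals stayed within 2-fold. Among the 381 genes of 500 to 1000 counts the change ran from -0.49 to 0.52, and 379 intervals (99.5%) stayed above a 2-fold decrease. In the 1177 genes of 200 to 500 counts 1042 intervals (88.5%) did so, and in the 1543 genes of 100 to 200 counts 1025 (66.4%). In the 1966 genes of 50 to 100 counts only 754 (38.4%) did so, and 5 lay within 2-fold on both sides. In this range the intervals of all but 5 genes thus reached a 2-fold change in 1 direction or both.

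**Figure D3:**
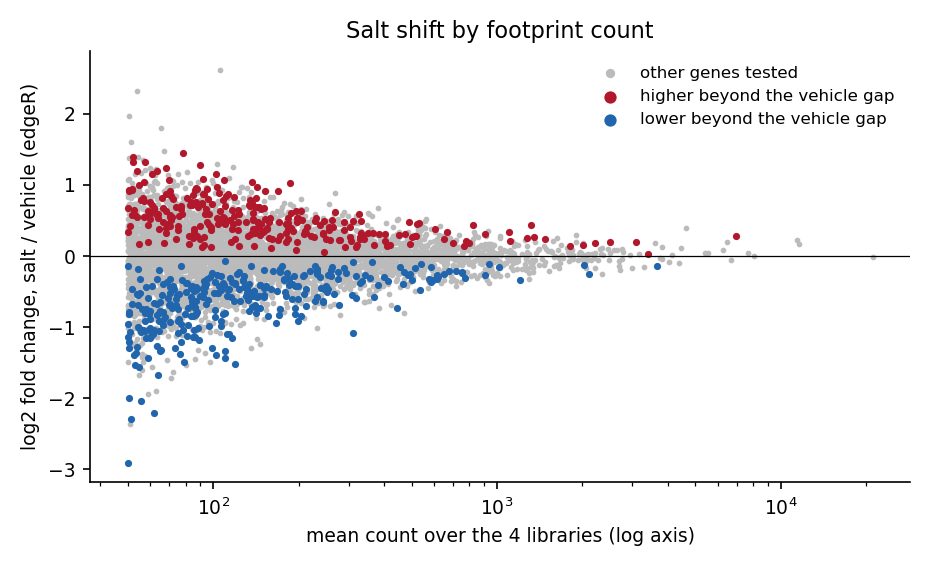
log2 fold change of salt against vehicle from edgeR (y axis) by mean count over the 4 libraries (x axis, log axis) for the 5258 genes tested, with the 275 genes higher (red) and 315 lower (blue) beyond the vehicle gap marked. The spread narrows from left to right, and the 191 genes above 1000 counts lie between -0.33 and 0.43.

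Shift and gaps narrowed together as counts grew. From the genes of 50 to 100 counts to those of at least 1000, the median vehicle gap went from 0.534 to 0.235, the median salt gap from 0.562 to 0.217 and the median absolute shift from 0.366 to 0.0888. The shift lay below both gaps in all 5 count ranges. Genes beyond the vehicle gap made up 5.44% (higher) and 7.32% (lower) of the genes of 50 to 100 counts. The same shares were 5.77% and 6.16% at 100 to 200 counts, 4.42% and 4.33% at 200 to 500, 3.67% and 5.25% at 500 to 1000, and 6.81% and 2.62% from 1000 counts on. The last range holds 13 higher and 5 lower genes, and its split was not tested.

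**Figure D4:**
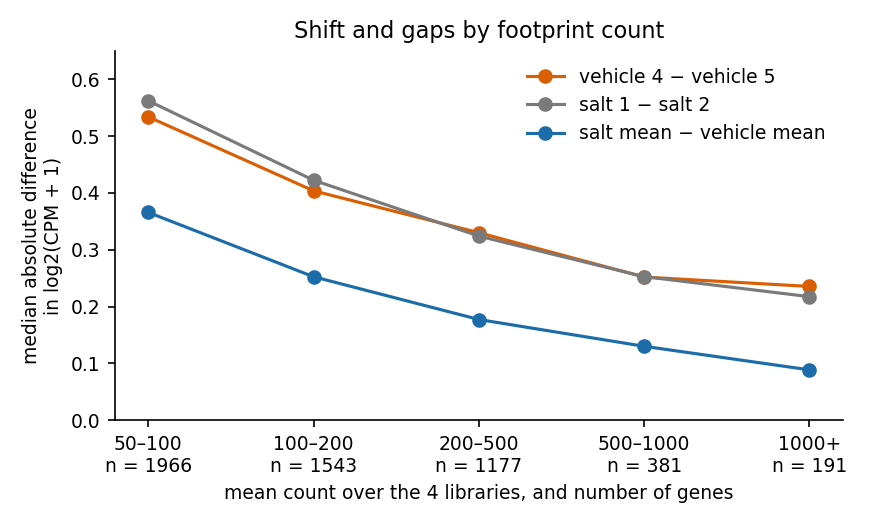
Median absolute difference in log2(CPM + 1) (y axis) in 5 ranges of mean count (x axis, with the number of genes), for the vehicle gap (orange), the salt gap (grey) and the salt shift of means (blue). All 3 lines fall with rising count, and the shift stays lowest, at 0.366 in the first range and 0.0888 in the last.

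The 100 genes with the most counts, which had means of 1527 to 21031 counts, shifted little. Their median log2 fold change was 0.018, 56 were higher and 44 lower, and all 100 lay within 0.5 of no change, from -0.25 to 0.40. In 17 of them both salt values lay above both vehicle values and in 4 below, against 13.6% and 13.3% of all genes tested. Beyond the vehicle gap 7 were higher and 3 lower, against 5.23% and 5.99% of all genes tested. These 100 genes took 20.5% and 20.1% of the counts of salt libraries 1 and 2 when chosen in each library anew, and 20.1% and 19.9% of those of vehicle libraries 4 and 5.

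ENSRNOG00000017428 had the most counts of the genes tested. It stood at 14560 and 12792 CPM in salt libraries 1 and 2 and at 14927 and 13083 CPM in vehicle libraries 4 and 5. The groups overlapped, with means of 13676 ± 1250 (SD, n = 2) and 14005 ± 1304 CPM (SD, n = 2). The log2 fold change was -0.02 (SE 0.15, interval -0.32 to 0.29, edgeR adjusted p 0.998), and the interval lay within 2-fold on both sides. In vehicle libraries 1 to 3 it stood higher, at 20592, 16043 and 17208 CPM.

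ENSRNOG00000019482 had the smallest fitted change among the 200 genes with the most counts. Its levels were 1012 and 1069 CPM with salt and 1086 and 1019 CPM with vehicle, again overlapping. The log2 fold change was -0.00060 (SE 0.22, interval -0.44 to 0.44, edgeR adjusted p 0.999). The sign of values this small has no weight, and for both of these genes it turned when single libraries were left out.

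Among 2294 genes averaging 100 CPM or more, 125 were higher and 99 lower beyond the vehicle gap. Over all 5258 genes tested these counts were 275 (5.23%) and 315 (5.99%). Among those averaging 100 CPM or more, log2 fold changes reached 1.04 and -1.08, and the tenth in order was at 0.68 and -0.68. The 2 at each end are described here. The rule itself required groups that do not overlap and favoured close vehicle values, so neither trait is a result. All 4 have an edgeR adjusted p of 0.998, so they illustrate the largest differences at these levels and are not called changed.

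ENSRNOG00000016846 was at 116 and 159 CPM in salt libraries 1 and 2, from 98 and 164 counts, and at 68.4 and 67.1 CPM in vehicle libraries 4 and 5. Both salt values were above both vehicle values, as the rule required, and the vehicle values nearly coincided. The log2 fold change was 1.04 (SE 0.40). Vehicle libraries 1 to 3 stood at 67.1, 35.6 and 39.1 CPM, so both salt libraries were above all 5 vehicle libraries. Homogenate RNA of libraries 1 to 3 held the gene at 55.8 to 62.2 CPM.

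ENSRNOG00000012354 was at 144 and 227 CPM with salt and at 87.9 and 95.5 CPM in vehicle libraries 4 and 5. The groups did not overlap, which the rule required, and the log2 fold change was 1.03 (SE 0.36), or 0.66 without salt library 2. Vehicle libraries 1 to 3 stood at 179, 266 and 240 CPM, the first between the salt values and the other 2 above both. The gene was therefore high with salt beside vehicle libraries 4 and 5 but not beside vehicle libraries 1 to 3.

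ENSRNOG00000018584 was at 70.0 and 156 CPM with salt and at 245 and 239 CPM in vehicle libraries 4 and 5. It had the largest decrease by the rule, with a log2 fold change of -1.08 (SE 0.35), which was -1.77 without salt library 2 and -0.64 without salt library 1. Vehicle libraries 1 to 3 stood at 46.7, 60.7 and 74.4 CPM. Those values lie around that of salt library 1 and below salt library 2, so the gene was low with salt beside vehicle libraries 4 and 5 but not beside vehicle libraries 1 to 3.

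ENSRNOG00000018840 was at 104 and 57.0 CPM with salt and at 151 and 154 CPM in vehicle libraries 4 and 5. The log2 fold change was -0.91 (SE 0.39), -0.53 without salt library 2 and -1.42 without salt library 1. Vehicle libraries 1 to 3, at 118, 89.997 and 92.9 CPM, overlapped the salt values. Of the 4 genes only ENSRNOG00000016846 thus lay outside the range of all 5 vehicle libraries.

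**Figure D5:**
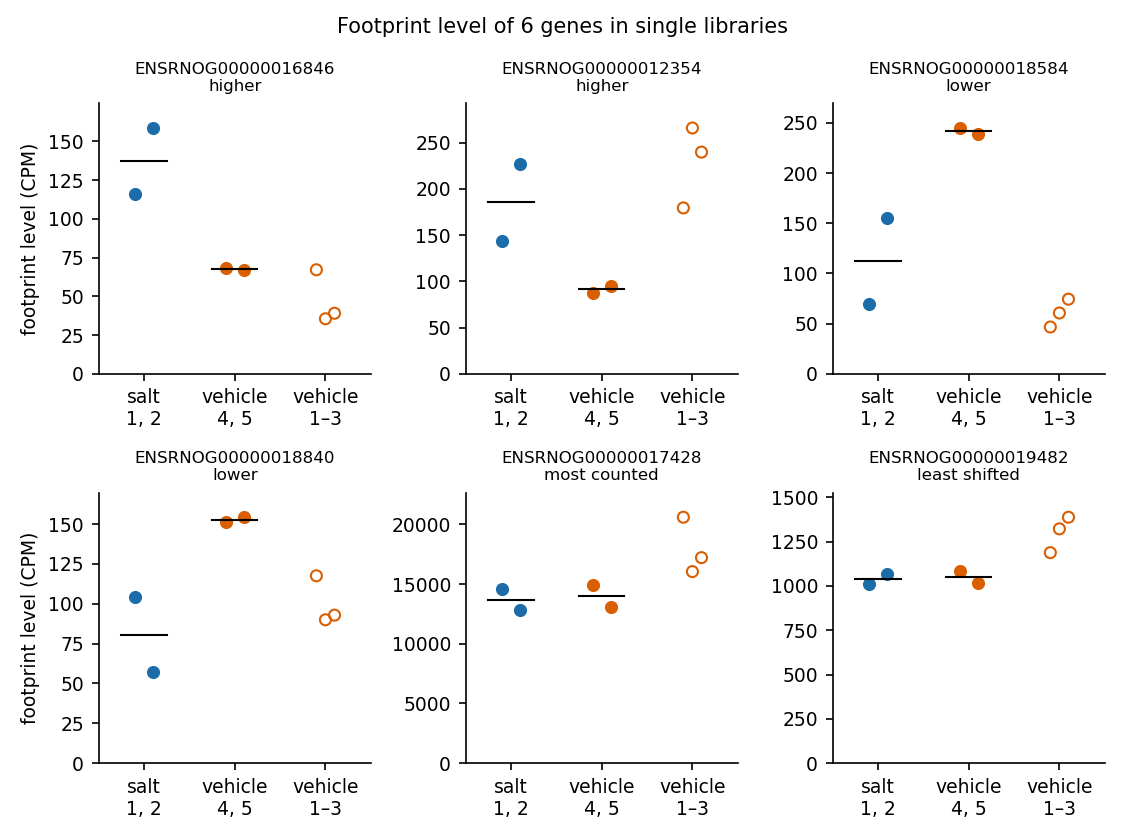
Footprint level in CPM (y axes, from 0) in single libraries for 6 genes, with salt libraries 1 and 2 in blue, vehicle libraries 4 and 5 as filled orange points, vehicle libraries 1 to 3 as open points and black lines at the means of the first 2 groups. ENSRNOG00000018584 lies at 245 and 239 CPM in vehicle libraries 4 and 5 but at 46.7 to 74.4 CPM in vehicle libraries 1 to 3.

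The gene with the smallest unadjusted p showed how 1 library could carry a fitted change. This is the same gene as the one described above with 134 counts in salt library 2. It had 18 and 134 counts in salt libraries 1 and 2 and 33 and 30 in vehicle libraries 4 and 5, or 21.4 and 130 CPM against 18.4 and 12.3 CPM. The log2 fold change was 2.32 (SE 0.67, edgeR unadjusted p 0.00122, adjusted p 0.998). Salt library 1 lay next to the vehicle values, and the salt gap of 2.54 exceeded the shift of 1.76 in log2(CPM + 1). Vehicle libraries 1 to 3 stood at 20.2, 10.0 and 35.1 CPM, so salt library 1 lay within their range.

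Footprints of mRNAs that are rich in the granule fraction relative to homogenate RNA were compared with the rest. The ratio came from vehicle footprint libraries 1 to 3 and RNA-seq libraries 1 to 3, which share no library with the salt comparison, and the 5258 genes were divided by it into 3 groups of equal size. The median shift with salt was -0.038 in the group with the lowest ratios, -0.013 in the middle group and 0.040 in the group with the highest. The difference between the outer groups was 0.078 in log2(CPM + 1), beside -0.211 between vehicle libraries 4 and 5. The first value compares means of 2 libraries, which vary less than the single libraries of the second. Their sizes are therefore not directly comparable.

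That difference was not alike in the 4 salt to vehicle pairs. It was 0.104 for salt 1 and 0.294 for salt 2 against vehicle 4, but -0.107 for salt 1 and 0.051 for salt 2 against vehicle 5. Salt library 1 minus salt library 2 gave -0.174. The direction turned, to -0.032 without vehicle library 4 and to -0.027 without salt library 2. Across the 5258 genes, which share the same libraries, the ratio and the shift gave Pearson 0.104 and Spearman 0.091, which is too weak to count as a finding in these counts.

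Counts beyond the vehicle gap were near those over all genes tested in each group. Among the highest ratios 102 genes (5.82%) were higher and 109 (6.22%) lower with salt, and among the lowest ratios 89 (5.08%) and 114 (6.50%). The interval stayed above a 2-fold decrease for 1331 genes (75.9%) of the highest group, 1102 (62.9%) of the middle and 958 (54.6%) of the lowest. The median of the mean counts went the same way, at 194, 130 and 98.8, and its part in those shares was not tested.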

How the data were processed

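The authors deposited 1 table of raw read counts per Ensembl rat gene, 1 column per library, matched to samples by title. The submitters' processing notes name CASAVA, cutadapt 2.8, Bowtie2 2.3.5, STAR 2.7.3a, deepTools and the build Rnor_6.0. The counting program and annotation are not given in the sources used here. Members and lists were chosen with earlier results of these data known; count ranges, intervals and the range of 5 vehicle libraries were chosen after the values were seen.

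Salt libraries 1 and 2 were tested against vehicle libraries 4 and 5 with edgeR 4.0.16 in R 4.3.3 (quasi-likelihood F-test, TMM factors, robust dispersions, Benjamini-Hochberg adjustment over 5258 genes, common biological coefficient of variation 0.294). The standard error is the absolute log2 fold change divided by the square root of F, and intervals use the fit's t quantiles. A pseudocount of 1 CPM was added before logs. CPM printed for single libraries omit the TMM factor. The procedure was tested on simulated data. Alternatives used DESeq2 1.42.0, limma 3.58.1, other scalings, minimum counts, thinned counts and each library left out.

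The rule for named genes asked for a symbol. Since no ID could be paired with one, it was applied to IDs, and only the 2 largest differences in each direction, the most counted gene and the least shifted of the 200 most counted are given by ID. Protein lengths were not analysed here for the same reason. Sequencing depth was 843053 to 2429708 counts per library used; 3 counts correspond to 1.23 to 3.56 CPM. No molecular identifiers are mentioned, and repeated reads of 1 fragment would each be counted, so such floors cover counting error only.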

Additional observations from a re-analysis of the deposited data

How the results depend on the processing

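No paired analysis was possible because the libraries compared, salt 1 and 2 and vehicle 4 and 5, share no replicate number. The count of 0 called genes held with RLE, upper-quartile or no scaling factors, DESeq2, limma-voom, dispersions fitted without robust estimation, thinning, a mean of at least 200 counts, edgeR's own filter (filterByExpr) and ENSRNOG00000010711 kept. It was 2 of 14121 genes with no filter on low counts and 1 of 5243 with an equal-weight minimum CPM, a setting chosen after seeing the data, all higher with salt and most counted in salt library 2. Leaving out each library gave 0 to 4 called genes and 35 to 340 genes with an unadjusted p under 0.05. That number was 291 with no filter, 187 with filterByExpr (9949 genes) and 11 with a mean of at least 200 counts. The last setting tests 1749 genes, so its other counts were lower too: 1593 intervals above a 2-fold decrease, 76 genes higher and 77 lower beyond the vehicle gap, 1349 overlapping, and a median absolute shift of 0.153. Left-out libraries put that median at 0.253 to 0.357 and the difference between the outer groups by footprint to RNA ratio at -0.032 to 0.172. With the range of all 5 vehicle libraries, 311 genes were higher and 340 lower without overlap. Fits without 1 library assume that the lone library varies like the other group. The counts beyond the vehicle gap were not recomputed with a library left out, and medians of gene lists and the protein length comparison were not run, for want of gene names.

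Large differences were named only among genes averaging 100 CPM or more and beyond the vehicle gap. For the 4 genes so named every alternative that tested them kept the direction. They were chosen because their groups do not overlap, so leaving out 1 library or rescaling could hardly reverse it. With all 4 libraries the edgeR, DESeq2 or limma adjusted p ran from 0.997 to 0.99997. ENSRNOG00000017428 turned to 0.073 without salt library 2 and 0.0898 without vehicle library 4, in a range of -0.131 to 0.0898 over left-out libraries. ENSRNOG00000019482 turned to 0.0060 with limma-voom, 0.0057 with a mean of at least 200 counts, 0.023 without salt library 1 and 0.056 without vehicle library 4, in a range of -0.061 to 0.056. The genes of 50 to 100 counts were fitted least precisely, with a median standard error of 0.59 in log2 against 0.23 from 1000 counts on. Over all genes tested, thinning to the smallest total left 3307 intervals above a 2-fold decrease, against 3391 in the main fit. The parts of depth and of spread between libraries in these standard errors were not tested.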
